A study of Rattus norvegicus with 8 samples.

Results

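The cortex and the outer medulla of rat kidneys without stones were compared on 4 of the 8 arrays of the series, chosen by their labels as all arrays of animals that did not receive ethylene glycol. All animals were male Sprague-Dawley rats, 10 weeks old. The cortex control and outer medulla control arrays came from untreated animals, and the cortex control with phlorizin and outer medulla control with phlorizin arrays from animals given phlorizin, which blocks sodium-glucose cotransport, without stone induction. The other 4 arrays came from rats given ethylene glycol and alfacalcidol for 2 weeks to form calcium oxalate stones (EG), with or without phlorizin, and enter below only for a direct comparison. There was 1 array for each zone and treatment. The labels state that each kidney was split into its zones, so both arrays of a treatment can share animals, and they give neither the number of animals behind an array nor whether RNA was pooled.

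The kidney is layered. The cortex holds the glomeruli, which filter the blood, the convoluted proximal tubules, which take back most of the filtered sugar, amino acids, phosphate and bicarbonate, and the distal convoluted tubules. The outer medulla holds the straight end of the proximal tubule in its outer stripe, thick ascending limbs, which take up salt without water, thin limbs, collecting ducts and bundles of straight vessels called vasa recta. Oxygen is scarce and the interstitium saltier there than in the cortex. Thick ascending limbs, collecting ducts and endothelium are found in both zones.

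Each zone difference below is outer medulla minus cortex on the log2 scale of the deposited values, given as the mean of the control pair and the phlorizin pair, so a positive value means higher in the outer medulla. Values on the 4 arrays ran from 2.40 to 19.70, and 357 transcript probe sets exceeded 16 on at least 1 of them, more than the log2 of any number a 16-bit scanner image can hold. Such values point to a rescaling step that the labels do not name. Differences are therefore stated on the deposited scale without conversion into a ratio of RNA amounts. Array medians were 7.44 and 7.39 in the cortex and 7.51 and 7.50 in the outer medulla. Every pair of values is in the order control, phlorizin. The 95th percentile of 23 background probes, called the background level here, lay between 7.67 and 7.78 on the 4 arrays. A gene at or below it on both arrays of a zone has no measured level there. For many such genes the difference is also given as a lower bound against that level ("at least"). Where no bound is given, the difference of such a gene is not a measured size either. Spike-in poly-A controls averaged 8.01 and 8.23 in the cortex and 7.46 and 7.60 in the outer medulla, and the part of this offset in the zone differences was not tested. Across transcript probe sets, the correlation r was 0.9927 for the cortex arrays and 0.9941 for the outer medulla arrays, and from 0.9178 to 0.9232 between zones.

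The zones differed in 7170 of 12780 tested probe sets (56.1%) by limma with the treatment as a block, at a Benjamini-Hochberg adjusted p under 0.05. Of the tested probe sets, 4309 (33.7%) were higher and 2861 (22.4%) lower in the outer medulla. Each count of list members below is to be read beside these shares. The fit has 1 residual degree of freedom, the change of the zone difference from the control pair to the phlorizin pair. It was combined with a variance prior drawn from all tested probe sets, worth 11.2 degrees of freedom. Each standard error (SE) and p-value thus rests mostly on that shared prior. The spread between animals of the same treatment was not measured. Differences between animals in that change cannot be told apart from an effect of phlorizin. The differences towards the cortex were the larger ones. At least 4 apart were 322 lower and 98 higher probe sets, and at least 8 apart 42 lower and 0 higher. The median over all tested probe sets was 0.16. A gene enters the test when its highest value reaches the median of all values (7.46), which 792 probe sets did in the cortex alone and 919 in the outer medulla alone. Those could only be found to differ in that direction, members of the lists below included.

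The zone difference was compared between the control pair and the phlorizin pair over all tested probe sets. The pairs differed by a median of 0.28 in size, and 437 tested probe sets had pairs at least 1 apart. At least 2 higher in both pairs were 666 (5.21%), and at least 2 lower 809 (6.33%). In both pairs, 1884 probe sets were at least 1 higher (14.7% of those tested) and 1473 at least 1 lower (11.5%).

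**Figure D1:**
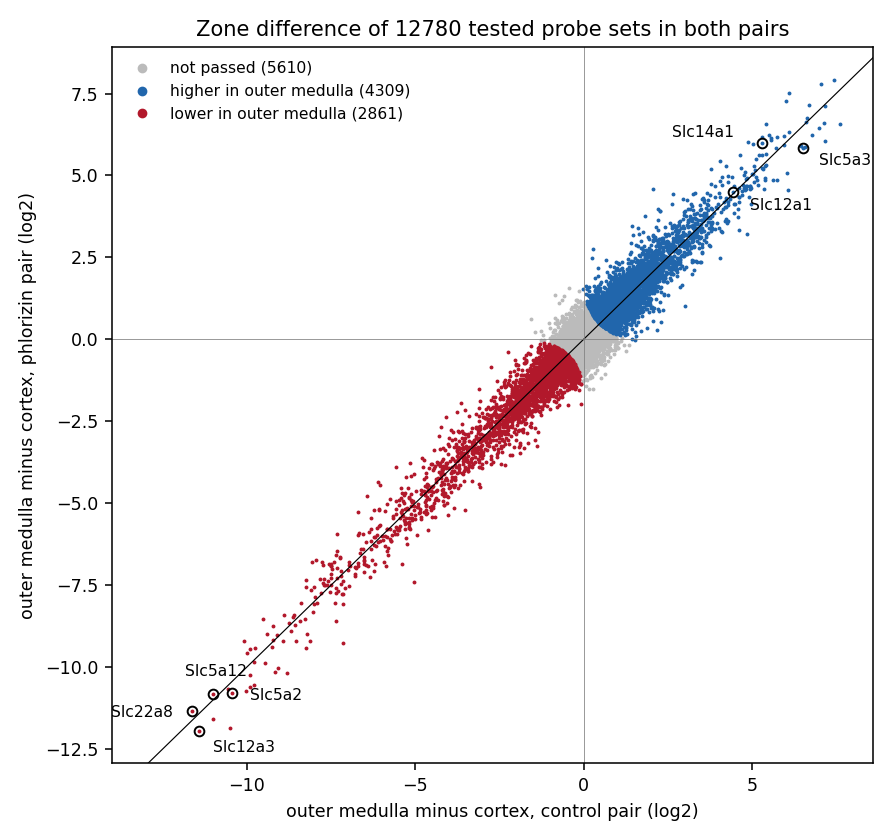
Zone difference in the control pair (horizontal axis) against that in the phlorizin pair (vertical axis), both as outer medulla minus cortex on the log2 scale, 1 point per tested probe set, coloured by the limma call. The points follow the diagonal line of equal differences, and the 7 circled genes, which mark cortical or medullary structures, lie at its ends: Slc12a3 at a mean of -11.69 and Slc5a3 at 6.19.

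The 7 marker genes of known position differed in the direction of the zone labels. Markers of the straight proximal tubule, whose end lies in the outer medulla, were lower there and are given below. Slc22a8, an organic anion transporter of the convoluted proximal tubule, stood at 17.85 and 17.75 on the cortex arrays and at 6.23 and 6.39 on the outer medulla arrays. Slc5a12, a lactate transporter of the same segment, stood at 17.73 and 17.40 against 6.71 and 6.58, and Slc5a2, encoding SGLT2, the main target of phlorizin in the kidney, at 16.46 and 16.25 against 6.02 and 5.46. All 3 were bright in the cortex and at or below the background level on both outer medulla arrays. Their zone differences were -11.49 (SE 0.20), -10.92 (SE 0.19) and -10.62 (SE 0.20), each with a limma adjusted p of 1.62e-12, and by the bound they were at least 10.08, 9.84 and 8.63 lower. Slc12a3, the thiazide-sensitive sodium chloride cotransporter of the distal convoluted tubule, stood at 16.07 on both cortex arrays and at 4.65 and 4.12 in the outer medulla, which is at least 8.35 lower. No distal convoluted tubule signal from this gene was thus measurable in the outer medulla arrays.

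Medullary genes went the other way. Slc12a1, the salt cotransporter blocked by furosemide in thick ascending limbs, stood at 13.54 and 13.45 in the cortex and at 17.97 and 17.94 in the outer medulla, a difference of 4.46 (SE 0.19, limma adjusted p = 7.44e-10). Its cortical values were well above background. Slc14a1, the urea transporter UT-B of descending vasa recta and red cells, stood at 5.15 and 5.10 against 10.44 and 11.11. The cortex values lay below the background level, so the difference of 5.65 (SE 0.22) is at least 3.05. Slc5a3, which imports the osmolyte myo-inositol, stood at 9.74 and 10.00 against 16.26 and 15.86, a difference of 6.19 (SE 0.22). In none of the 7 genes did the values of the zones overlap. The share of all tested probe sets without such overlap was not counted, and 56.1% of them passed the limma test. In samples of whole tissue such as these, fewer cells of a type and less RNA per cell cannot be told apart.

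**Figure D2:**
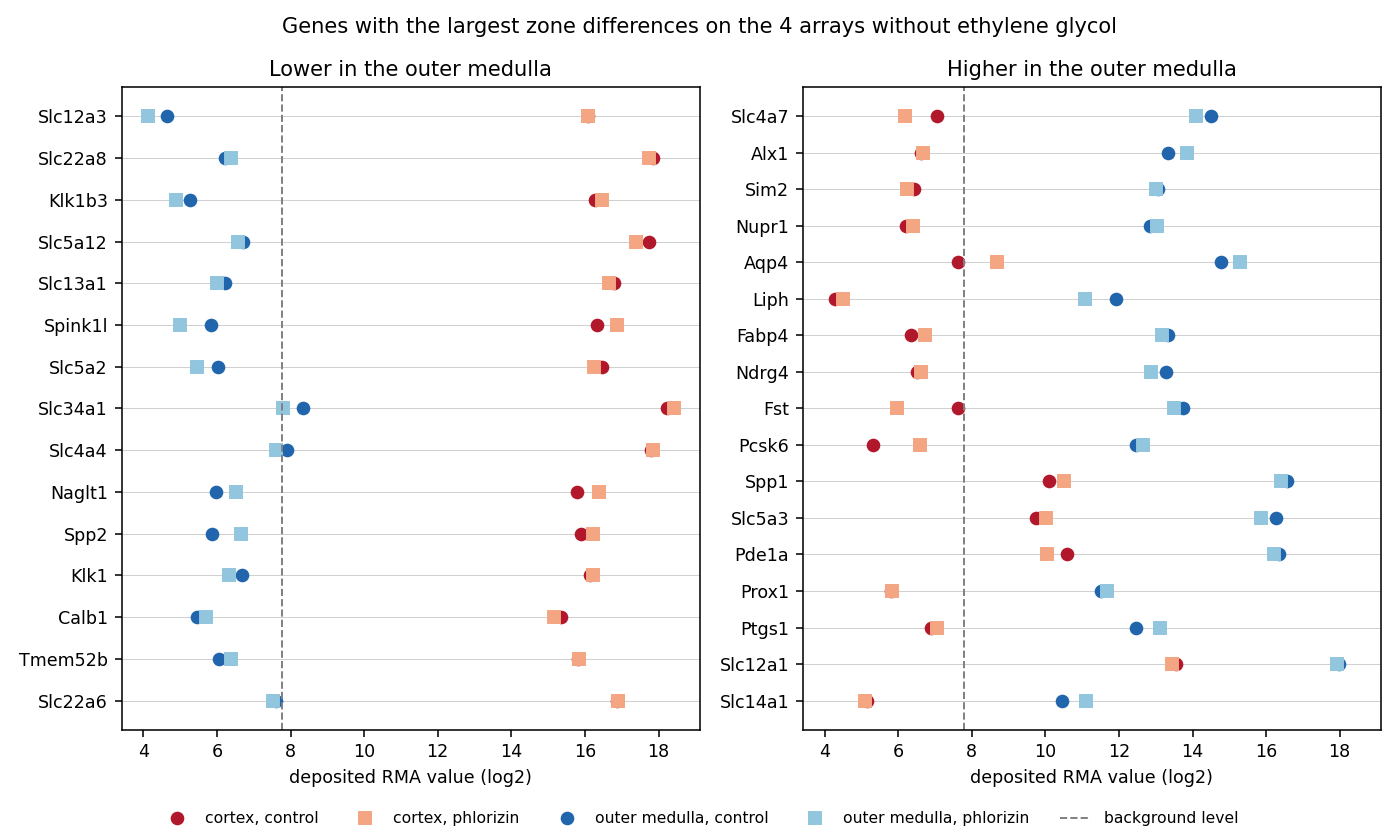
Deposited values (log2, horizontal axis) on the 4 arrays of the 15 named genes with the largest zone difference in each direction, with Slc12a1 and Slc14a1 added on the right; circles are control and squares phlorizin arrays, and the dashed line is the highest background level of the 4 arrays (7.78). On the left, the outer medulla points of Slc12a3, at 4.65 and 4.12, lie far below the line; on the right, those of Slc4a7, at 14.51 and 14.11, lie far above it.

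Among the 15 genes with the largest difference towards the cortex were, besides Slc12a3 and the proximal transporters named above, secreted proteins and their inhibitors. Klk1b3, a tissue kallikrein, stood at 16.28 and 16.46 in the cortex against 5.26 and 4.88, and Klk1, the main kallikrein of the connecting tubule, at 16.13 and 16.21 against 6.67 and 6.33. The kallikrein genes are near-identical copies of each other, so their probe sets may share signal. Spink1l, a relative of a serine protease inhibitor, stood at 16.33 and 16.88 against 5.83 and 5.0, and Spp2, a secreted phosphoprotein, at 15.88 and 16.23 against 5.86 and 6.66. Naglt1, a sodium-dependent glucose transporter, stood at 15.77 and 16.38 against 5.98 and 6.51. None of these 5 had a level above background in the outer medulla, and their bounds were 8.65, 8.45, 8.88, 8.33 and 8.35.

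Towards the outer medulla, the largest difference was that of Slc4a7, the electroneutral sodium bicarbonate cotransporter NBCn1. It stood at 7.07 and 6.19 in the cortex, below background, and at 14.51 and 14.11 in the outer medulla, a difference of 7.68 (SE 0.20, limma adjusted p = 1.23e-11) and at least 6.59. Slc4a4, the electrogenic cotransporter NBCe1 of the same family, which carries bicarbonate out of proximal cells, went the opposite way, from 17.79 and 17.85 in the cortex to 7.89 and 7.60, a difference of -10.08 (SE 0.20). Several transcription factors were on the same list as Slc4a7. Alx1, a homeobox gene, stood at 6.63 and 6.68 against 13.34 and 13.84, Sim2, a bHLH-PAS factor, at 6.44 and 6.25 against 13.07 and 13.02, and Prox1, a homeobox gene best known from lymphatic vessels, at 5.81 and 5.83 against 11.52 and 11.66. Nupr1, a nuclear protein induced by stress, stood at 6.23 and 6.41 against 12.84 and 13.05. All 4 were at background in the cortex and were at least 5.87, 5.32, 3.87 and 5.22 higher in the outer medulla.

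The other members of that list had various roles. Spp1, encoding the matrix phosphoprotein osteopontin, was measurable in both zones, at 10.10 and 10.50 in the cortex and 16.58 and 16.41 in the outer medulla. Ptgs1, the constitutive cyclooxygenase of prostaglandin synthesis, stood at 6.90 and 7.06 against 12.45 and 13.12, and Pde1a, a calcium-dependent phosphodiesterase, at 10.58 and 10.05 against 16.34 and 16.22. The secreted activin antagonist Fst, follistatin, stood at 7.62 and 5.98 against 13.73 and 13.50. Its cortex values differed by 1.64 between treatments, both below background. Liph, a phospholipase, Ndrg4 and Pcsk6, a proprotein convertase, completed the list. All 3 were at background in the cortex and were at least 3.78, 5.34 and 4.83 higher in the outer medulla.

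Convoluted proximal tubule markers were lower in the outer medulla as a group. Of 18 markers, all tested, 17 were lower and 1 higher, with a median of -8.79. Beside the 3 transporters above, Slc34a1, the main phosphate transporter, stood at 18.24 and 18.41 in the cortex and 8.33 and 7.80 in the outer medulla. The basolateral sugar exit pathway showed the same pattern, since Slc2a2, encoding GLUT2, stood at 14.34 and 14.22 against 4.83 and 5.67. Of the 17 lower markers, 8 were at background on both outer medulla arrays and 6 had entered the test through the cortex alone. The exception was Slc9a3, encoding the sodium proton exchanger NHE3, which thick ascending limbs also express. It stood at 13.96 and 13.65 in the cortex and at 16.07 and 16.01 in the outer medulla, a difference of 2.23 (SE 0.20, limma adjusted p = 7.12e-07).

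Straight proximal tubule markers were lower in the outer medulla too, by less. All 9 tested markers of a list of 11 were lower, with a median of -3.40. Slc5a8, a monocarboxylate transporter, stood at 13.94 and 13.87 against 6.20 and 6.97, and Acsm3, an acyl-CoA synthetase, at 15.36 and 15.83 against 9.16 and 8.97. Slc3a1, the heavy subunit of the cystine transporter, stood at 17.13 and 17.26 against 13.00 and 12.97. Ggt1, a brush border glutathionase, differed by -3.83. Slc7a12, an amino acid transporter of the straight segment, was the least different, at 11.80 and 13.03 against 10.84 and 11.64, a difference of -1.17 (SE 0.20). It was higher on the phlorizin array than on the control array in both zones, and Slc7a13, its relative, was too, at 15.40 and 16.37 against 13.48 and 13.85. Slc5a1, encoding SGLT1, the sugar transporter of the straight segment, was near background in the cortex, at 7.90 and 7.70, and below it in the outer medulla, at 4.58 and 4.22, so its difference is bounded only by 0.08.

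Thin limb and thick ascending limb markers were higher in the outer medulla. Of 6 tested thin limb markers, 5 were higher, with a median of 3.86. Of the 6, 3 had entered the test through the outer medulla alone, and 4 of the 5 higher ones were at background in the cortex. Slc4a11, a transporter named for the bicarbonate family, stood at 6.27 and 7.20 in the cortex and 12.32 and 12.26 in the outer medulla. Cryab, a small heat shock protein, stood at 10.01 and 10.90 against 15.74 and 15.76. Aqp1, the water channel shared by proximal tubules and thin descending limbs, did not pass, at 16.41 and 16.47 against 16.97 and 16.61. The urea transporter gene Slc14a2 passed with values mostly below background, at 4.93 and 4.69 against 6.56 and 7.91.

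Of 12 tested thick ascending limb markers, 10 were higher in the outer medulla and none lower, with a median of 2.25. Cldn19, a tight junction protein needed for magnesium and calcium uptake, stood at 9.30 and 9.19 in the cortex and 14.37 and 14.49 in the outer medulla, and its partner Cldn16 at 12.80 and 12.30 against 14.42 and 14.09. The differences of these partners were 5.19 (SE 0.20) and 1.70 (SE 0.19). Ptger3, a prostaglandin E2 receptor, stood at 10.16 and 9.86 against 14.46 and 14.06, and Ppp1r1a, a phosphatase inhibitor, at 11.80 and 11.57 against 15.97 and 15.77. Kcnj1, the potassium channel ROMK, differed by 2.77 (SE 0.19). Umod, encoding uromodulin, the most abundant urinary protein, differed by 1.29 (SE 0.20), with 17.33 and 17.46 against 18.85 and 18.51. Egf and Casr, the calcium-sensing receptor, did not pass, with differences of 0.30 (SE 0.20) and -0.07 (SE 0.19). The 1 tested macula densa marker, Ptgs2, the inducible cyclooxygenase, which medullary interstitial cells also make, stood at 9.34 and 8.92 against 13.14 and 14.13.

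Distal convoluted and connecting tubule markers were lower in the outer medulla in 7 of 9 tested cases and higher in 2, with a median of -3.77. Calb1, the calcium buffer calbindin, stood at 15.36 and 15.15 in the cortex and 5.45 and 5.69 in the outer medulla. Trpv5, the apical calcium channel, stood at 11.35 and 11.40 against 5.48 and 4.49, and Slc8a1, the sodium calcium exchanger, at 13.05 and 13.25 against 9.23 and 9.52. Of the 7 lower markers, 5 were at background in the outer medulla and had entered the test through the cortex alone. Wnk4, a kinase that regulates salt transport, was 0.83 higher (SE 0.19), and Kcnj10, a basolateral potassium channel, 1.38 higher (SE 0.23). Kcnj16, which forms channels with Kcnj10, differed by -1.44 (SE 0.19).

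Collecting duct markers were listed by cell type. Of 10 tested principal cell markers, 6 were higher in the outer medulla, 1 lower and 3 did not pass, with a median of 2.34. Aquaporin genes were among the 6. Aqp2, the vasopressin-regulated channel, stood at 15.03 and 15.44 in the cortex and 17.76 and 18.15 in the outer medulla, Aqp3, a basolateral channel, at 13.31 and 13.24 against 15.47 and 16.10, and Aqp4, the other basolateral channel, at 7.63 and 8.69 against 14.77 and 15.29. The difference of Aqp4 was 6.87 (SE 0.21), while those of Aqp2 and Aqp3 were 2.72 (SE 0.19) and 2.50 (SE 0.22). Avpr2, the vasopressin receptor, was at least 1.76 higher, with cortex values below background. Subunits of the sodium channel ENaC did not share this, as Scnn1a and Scnn1g did not pass, at 0.04 (SE 0.21) and 0.20 (SE 0.21), and Scnn1b was lower, at -0.90 (SE 0.19).

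Of 16 tested intercalated cell markers, 9 were higher in the outer medulla, 4 lower and 3 did not pass, with a median of 0.70. Intercalated cells come in an acid-secreting type A and a bicarbonate-secreting type B. Slc26a4, encoding pendrin, the apical anion exchanger of type B cells, stood at 12.89 and 12.50 in the cortex and at 5.18 on both outer medulla arrays, which is at least 4.97 lower. Slc4a9, a basolateral anion exchanger of type B cells, stood at 13.19 and 12.83 against 11.42 and 12.26, and Oxgr1, the oxoglutarate receptor found in type B cells, at 12.99 and 12.56 against 10.78 and 11.33. The 4th lower gene, Hmx2, a homeobox gene, was near background. Slc4a1, the anion exchanger AE1 of type A cells and of red cells, stood at 12.70 and 12.88 in the cortex and 15.96 and 16.27 in the outer medulla. Aqp6, a channel of acid-secreting cells, stood at 12.35 and 12.09 against 15.85 and 16.05, and Slc26a7, a basolateral anion exchanger of medullary type A cells, at 7.97 and 7.93 against 13.35 and 12.87. Their differences were 3.33 (SE 0.19), 3.73 (SE 0.20) and 5.16 (SE 0.20). Atp6v1b1, a proton pump subunit common to both types, did not pass, at -0.12 (SE 0.22).

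Glomerular markers were unevenly lower in the outer medulla. Of 9 tested podocyte markers, 6 were lower, 2 higher and 1 did not pass, with a median of -0.96. Of the 9, 3 had entered the test through the cortex alone. Nphs1, encoding nephrin of the slit diaphragm, stood at 8.82 and 8.58 in the cortex and 5.0 and 5.53 in the outer medulla, and Ptpro, a phosphatase of the podocyte surface, at 9.17 and 9.02 against 6.26 and 6.36. Their cortex values were little above background, so the bounds were 0.98 and 1.38. Cdkn1c, a cell cycle inhibitor, and Plce1, a phospholipase, went the other way, by 2.59 (SE 0.21) and 1.15 (SE 0.20). Akr1b7, which is made by renin cells, stood at 6.99 and 8.57 against 5.30 and 5.71, close enough to background for its difference to be bounded only by 0.06.

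Markers of vessels, interstitium and blood were mostly higher in the outer medulla. Of 13 tested endothelial markers 9 were higher, 1 lower and 3 did not pass, with a median of 1.40. Plvap, a diaphragm protein of fenestrated vessels, stood at 12.42 and 12.28 against 15.29 and 14.97, and Emcn, encoding endomucin, at 12.86 and 12.80 against 14.87 and 14.82. Kdr, the main VEGF receptor, was the lower one, at -0.77 (SE 0.19). Of the mural and mesangial list 5 of 9 were higher and 2 lower, beside 33.7% and 22.4% of all tested probe sets. The pericyte gene Rgs5 stood at 10.31 and 10.56 against 13.23 and 13.13. Myh11, a smooth muscle myosin, stood at 8.95 and 8.79 against 6.77 and 6.67. Among fibroblast markers 4 of 6 were higher, led by Pdgfra (2.12, SE 0.20) and the matrix gene Dcn (1.90, SE 0.21).

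Red cell transcripts were higher in the outer medulla in all 3 tested cases, with a median of 3.41. Hba-a1, an alpha globin, stood at 13.94 and 13.58 in the cortex and 17.10 and 17.25 in the outer medulla, and Hbb, a beta globin, at 12.04 and 10.75 against 14.69 and 15.18. The summed level of the 3 globin genes was 14.31 and 13.79 in the cortex and 17.37 and 17.57 in the outer medulla on the log2 scale. For this sum the logarithm of the deposited values was undone and taken again, so it is not a measure of RNA amount. The genes that red cells share with kidney cells moved the same way, namely Slc4a1 and Slc14a1, and the part of blood in their differences was not tested.

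Of 10 tested macrophage and dendritic cell markers 5 were higher and none lower, with a median of 0.60. Of all tested probe sets, 33.7% were higher and 22.4% lower. Their level, summed in the same way as for globins, was 16.91 and 17.03 in the cortex against 17.03 and 17.10. Most of that sum was Cd74, which stood at 16.55 and 16.71 against 16.22 and 16.29 and did not pass. It therefore says little about the other markers. Among the 10 markers, Csf1r, a macrophage growth factor receptor, differed most, by 2.52 (SE 0.20). None of the lymphocyte markers reached the level for testing. Fabp4, a fatty acid binding protein of fat cells and capillary endothelium, stood at 6.34 and 6.72 against 13.35 and 13.16, at least 5.53 higher, while Adipoq, a hormone of fat cells, was 1.0 higher (SE 0.20) and Cidec, a lipid droplet protein, at least 1.05 lower, at 8.55 and 8.98 against 6.42 and 6.30. In the urothelial list only Psca was tested, at 6.23 and 5.78 against 11.51 and 11.97, and the 4 uroplakin genes of the list did not reach the level for testing.

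**Figure D3:**
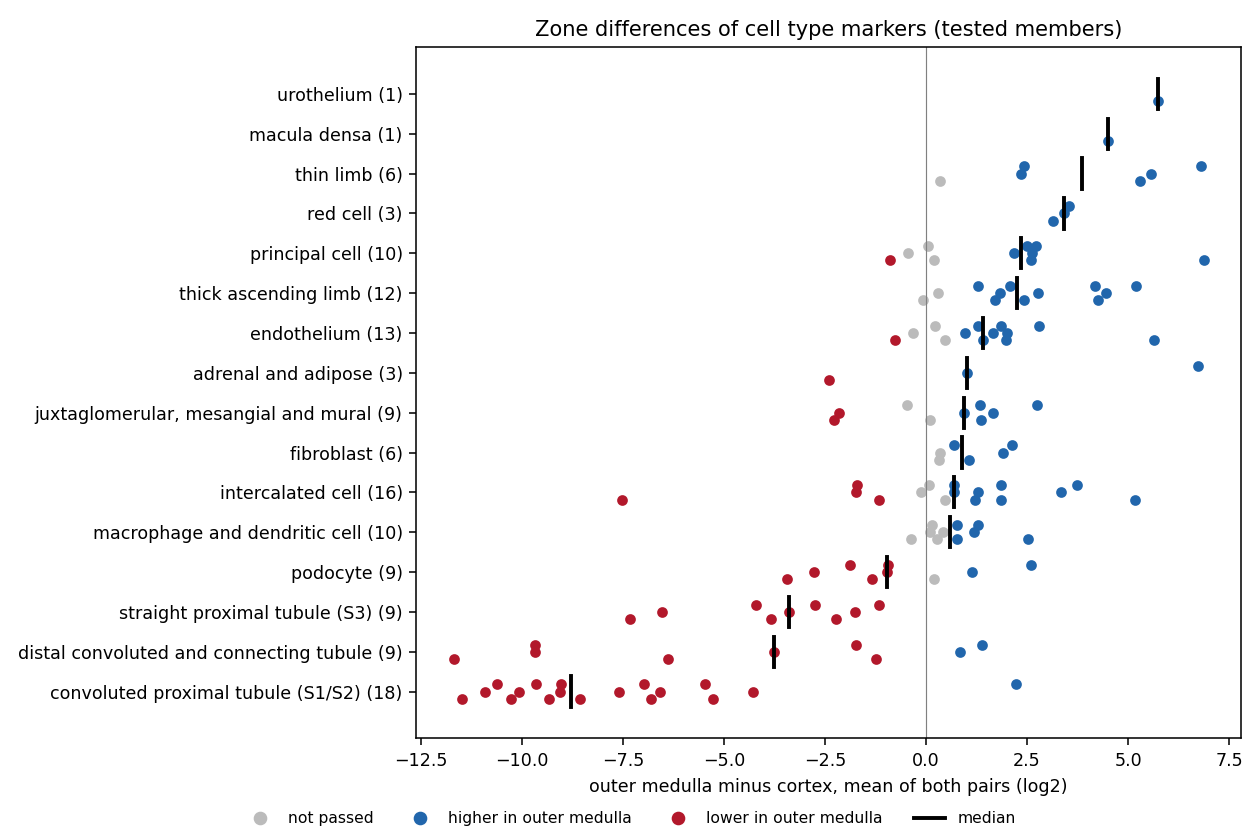
Zone difference (outer medulla minus cortex, mean of both pairs, log2) of each tested marker in the cell type lists, 1 point per gene, coloured by the limma call, with the list median as a bar and the number tested in brackets. Medians run from -8.79 for the convoluted proximal tubule, where Slc9a3 alone lies to the right of 0, to 3.86 for the thin limb among lists of 5 or more tested markers.

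Organic ion transporters, which move drugs, urate, sulfate and citrate across proximal cells, were lower in the outer medulla in 17 of 21 tested cases, with a median of -5.20. Slc22a6, the organic anion transporter OAT1, stood at 16.86 and 16.90 against 7.61 and 7.51, and Slc13a1, the sulfate transporter, at 16.79 and 16.67 against 6.22 and 6.01. Slc26a1, a basolateral exchanger of sulfate and oxalate, stood at 14.15 and 13.67 against 4.92 on both outer medulla arrays. In 11 of the 17, the outer medulla values were at background, and 7 of the 21 had entered the test through the cortex alone. Slco2a1, a prostaglandin carrier, Slco3a1 and Slc22a4 were higher, by 2.26 (SE 0.20), 2.03 (SE 0.19) and 1.04 (SE 0.20).

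Amino acid and peptide transporters were lower in 17 of 22 tested cases and higher in 4, with a median of -2.03. Slc6a19, the neutral amino acid transporter of the brush border, stood at 14.32 and 14.04 against 4.22 and 4.84. Slc7a9, the light subunit of the cystine transporter, stood at 14.15 and 14.21 against 5.55 and 5.80, and was thus at background in the outer medulla, where its heavy subunit Slc3a1 was not. The basolateral exchangers Slc7a7 and Slc7a8 differed by -6.98 (SE 0.20) and -7.59 (SE 0.20). Higher in the outer medulla were Slc38a2, a neutral amino acid importer induced by hypertonicity, at 13.35 and 13.31 against 16.54 and 17.01, Slc7a5, Slc1a5 and Slc6a6, the taurine transporter.

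Sugar, lactate and inositol transporters were lower in 10 of 16 tested cases and higher in 6, with a median of -3.33. Of the 16, 8 had entered the test through the cortex alone and 3 through the outer medulla alone. Beside Slc5a2 and Slc2a2, which were at background in the outer medulla, Slc2a5, the fructose transporter, was 3.48 lower on average, at 11.43 and 12.14 against 8.41 and 8.20. Slc2a1, encoding GLUT1, stood at 10.23 and 10.48 in the cortex and 14.24 and 13.87 in the outer medulla, a difference of 3.70 (SE 0.21). Slc2a4, encoding the insulin-regulated GLUT4, stood at 5.79 and 6.15 against 10.49 and 10.67, at least 2.86 higher. Slc16a7, the lactate and pyruvate carrier MCT2, differed by 2.78 (SE 0.19) and Slc16a1, the carrier MCT1, by -3.26 (SE 0.23).

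Sodium, chloride and bicarbonate transport genes went in both directions, 12 of 24 higher and 7 lower, with a median of 0.54. Of all tested probe sets, 33.7% were higher and 22.4% lower. The kinases that control the salt cotransporters were among them. Stk39, encoding the kinase SPAK, stood at 13.13 and 13.14 in the cortex and at 16.10 on both outer medulla arrays, a difference of 2.97 (SE 0.19). Wnk1, an upstream kinase with a kidney-specific short form in the distal convoluted tubule that the probe set was not matched to, differed by -2.30 (SE 0.20). Fxyd2, a regulatory subunit of the sodium pump, was 0.90 higher (SE 0.20), while the pump subunit Atp1b1 did not pass, at 0.44 (SE 0.21).

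Among potassium channels 5 of 9 tested were higher and 4 lower. Kcnj15 stood at 16.05 and 16.56 in the cortex and 7.85 and 7.56 in the outer medulla. Kcnk1, a tandem pore channel, stood at 9.88 and 9.67 against 15.17 and 14.88, and Kcnt1, a sodium-activated channel, at 8.72 and 8.35 against 12.93 and 12.40. Kcne1, a channel subunit of the proximal tubule, was at background in the outer medulla, at 9.89 and 9.97 against 6.13 and 6.59, while its partner Kcnq1 was 1.31 higher (SE 0.20).

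Of 15 tested calcium, magnesium and phosphate genes 9 were lower and 3 higher, with a median of -1.24. The phosphate transporters of the brush border, Slc34a1 and Slc34a3, were lower by the amounts given above and by at least 6.84. Slc34a2, of the same family, was 1.13 higher (SE 0.21) at low levels, 7.59 and 7.87 against 9.04 and 8.69. Slc20a1, a phosphate transporter found in most cells, was 0.60 higher (SE 0.20).

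Claudins, which set the permeability between cells, were higher in 8 of 12 tested cases and lower in 3, with a median of 2.11. Cldn2, a water and cation pore of the proximal tubule, stood at 8.54 and 8.12 in the cortex and 5.86 and 6.06 in the outer medulla. The latter values were below background, so it was at least 0.61 lower. Cldn10, a sodium pore of the thick limb in one of its splice forms, stood at 14.71 and 14.65 against 17.12 and 17.10. Cldn4, a collecting duct claudin, stood at 7.56 and 8.32 against 12.68 and 13.27. Cldn15, at background in the cortex, was at least 0.97 higher.

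Of the aquaporin and urea transporter list, 6 of 9 tested were higher, 2 were lower and Aqp1 did not pass. Aqp7 and Aqp11 were the lower ones. Aqp7, a glycerol channel of the straight proximal tubule, stood at 14.20 and 14.55 against 7.79 and 7.64, and Aqp11, a channel inside proximal cells, at 11.22 and 11.41 against 6.60 and 5.61.

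Genes of protein endocytosis were lower in 7 of 9 tested cases, with a median of -3.58. Lrp2, encoding the scavenger receptor megalin, stood at 17.73 and 17.84 in the cortex and 11.10 and 11.32 in the outer medulla, and its partner Cubn, cubilin, at 15.95 and 15.92 against 10.75 and 10.19. Amn, the protein that anchors cubilin, stood at 12.29 and 12.03 against 5.98 and 6.59. All 3 genes of this complex were lower, and the last was at background in the outer medulla. Ocrl, a lipid phosphatase, and Rab11a, of recycling vesicles, were 1.01 (SE 0.20) and 0.49 higher (SE 0.19).

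Of 23 tested receptors 10 were higher and 6 lower, shares near the 33.7% and 22.4% of all tested probe sets. Pth1r, the parathyroid hormone receptor, stood at 15.17 and 15.24 in the cortex and 8.89 and 8.49 in the outer medulla, and Vdr, the vitamin D receptor, at 12.32 and 12.48 against 9.08 and 9.15. Adra2b, an adrenergic receptor, differed by -4.13 (SE 0.22). The 3 listed prostaglandin E2 receptors were higher. Ptger1 stood at 5.12 and 6.0 in the cortex, below background, against 9.40 and 9.62. Ptger3 was given above, and Ptger4 was 1.76 higher (SE 0.21). Adora1, an adenosine receptor, was at background in the cortex and at least 1.63 higher. Nr3c2, the mineralocorticoid receptor, was 1.86 higher (SE 0.19), while Nr3c1, the glucocorticoid receptor, did not pass, at -0.03 (SE 0.20).

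Among secreted products 9 of 17 tested were higher and 6 lower, beside 33.7% and 22.4% of all tested probe sets. Gpx3, the plasma glutathione peroxidase made by the kidney, stood at 19.33 and 19.55 in the cortex and 12.12 and 12.33 in the outer medulla. Igf1, the growth factor, went the other way, with 9.58 and 10.14 against 15.21 and 14.99, a difference of 5.24 (SE 0.22). Its binding protein gene Igfbp3 differed by -3.10 (SE 0.21). Dnase1, a secreted nuclease, was 3.05 higher (SE 0.19), and Bmp7, a kidney growth factor, 2.21 lower on average, at 13.59 and 13.68 against 11.56 and 11.27.

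**Figure D4:**
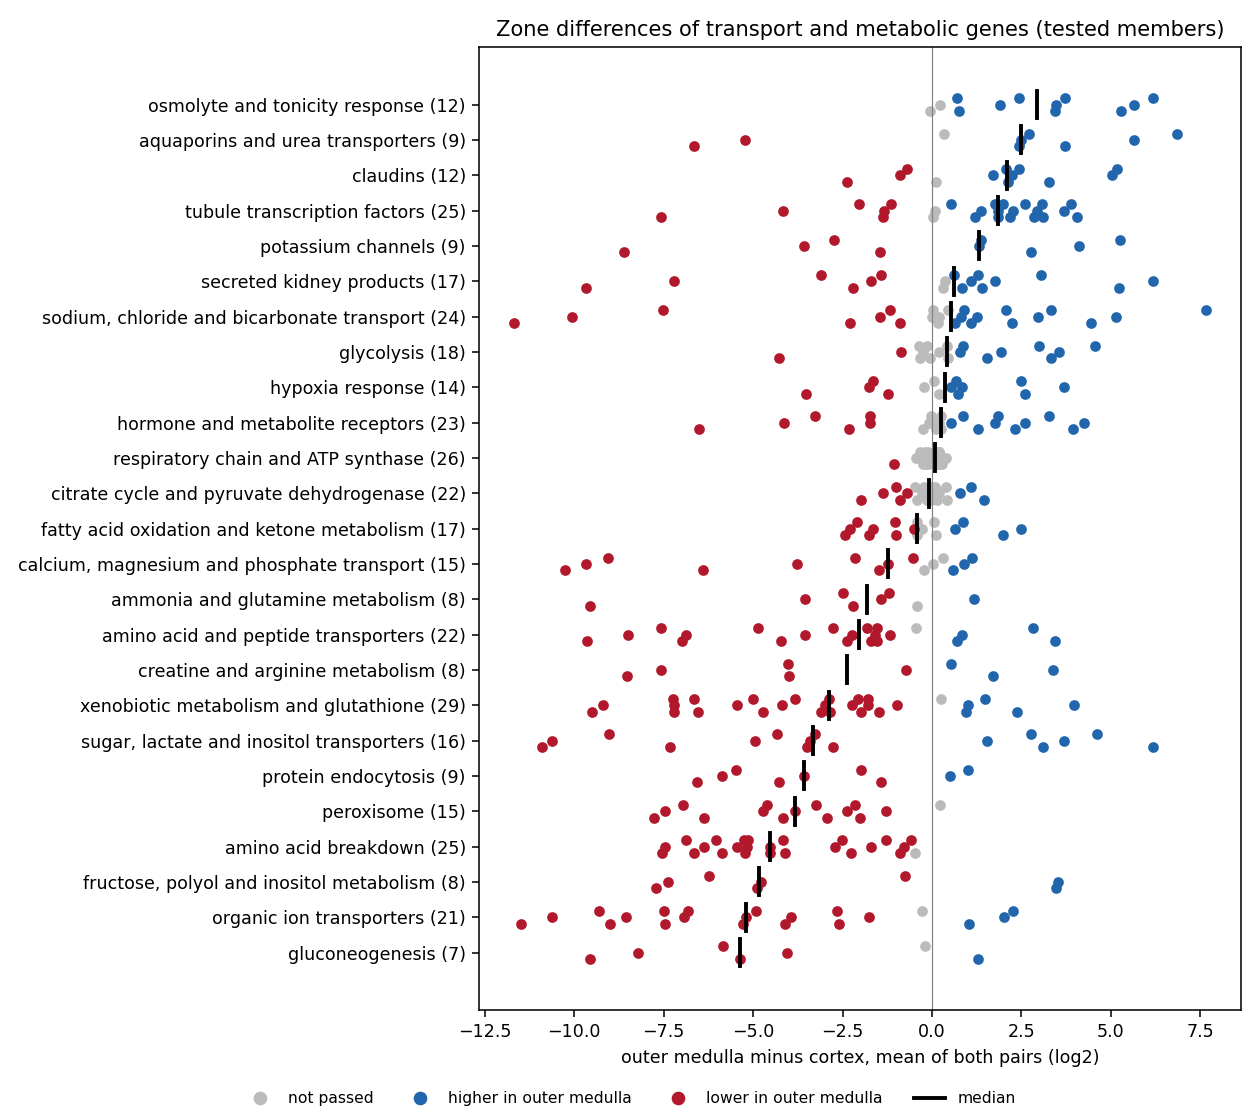
Zone difference (outer medulla minus cortex, mean of both pairs, log2) of each tested gene in the transport, signalling and metabolic lists, 1 point per gene, coloured by the limma call, with list medians as bars and the number tested in brackets. The points of the respiratory chain and ATP synthase lie close to 0, between -1.07 and 0.41, while those of amino acid breakdown all lie to the left of 0, from -7.55 to -0.48.

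Genes that make and break down glucose were listed separately. Of 7 tested genes of gluconeogenesis, by which the kidney makes glucose, 5 were lower in the outer medulla and 1 higher, with a median of -5.38. Pck1, the rate-limiting phosphoenolpyruvate carboxykinase, stood at 17.44 and 17.48 in the cortex and 8.36 and 7.43 in the outer medulla, Fbp1, fructose bisphosphatase, at 17.75 and 17.59 against 9.34 and 9.54, and G6pc1, which releases free glucose, at 15.99 and 15.41 against 10.42 and 10.22. G6pc3, a phosphatase of non-gluconeogenic cells, was the higher one, by 1.29 (SE 0.20). Of 18 tested glycolysis genes 8 were higher, 2 lower and 8 did not pass, with a median of 0.43. Hk1, a hexokinase, stood at 10.38 and 10.68 against 14.12 and 14.07, Pfkp, a phosphofructokinase, at 9.51 and 9.33 against 14.23 and 13.73, and Pkm, the pyruvate kinase of most tissues, at 11.62 and 11.40 against 14.51 and 14.50. Pklr, the pyruvate kinase of liver and proximal tubule, went the opposite way, at 11.53 and 11.65 against 7.31 and 7.30. Aldoa, an aldolase, was 0.86 higher (SE 0.19), and Gapdh did not pass, at -0.24 (SE 0.20). Ldha, which makes lactate, was 1.54 higher (SE 0.20), while Ldhb did not pass, at 0.42 (SE 0.19).

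Fructose and polyol enzymes were lower in the outer medulla in 6 of 8 tested cases, with a median of -4.83. Khk, ketohexokinase, stood at 13.73 and 13.41 against 7.17 and 7.48, Sord, which turns sorbitol into fructose, at 15.88 and 16.07 against 8.38 and 8.79, and Miox, which breaks down myo-inositol, at 17.53 and 17.39 against 10.14 and 9.34. The 2 that were higher encode enzymes that make polyols, but Impa1, also of inositol synthesis, was among the 6 lower. Akr1b1, aldose reductase, which makes sorbitol, stood at 11.32 and 11.15 against 14.32 and 15.06, and Isyna1, which makes inositol, at 9.86 and 9.90 against 13.26 and 13.53.

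Osmolyte and tonicity genes were higher in 10 of 12 tested cases and lower in none, with a median of 2.93. Nfat5, the transcription factor that responds to tonicity, stood at 12.44 and 12.41 in the cortex and 16.19 and 16.12 in the outer medulla. Together with the inositol importer Slc5a3 and the enzymes Akr1b1 and Isyna1, the taurine transporter Slc6a6 was higher, by 0.71 (SE 0.19). Hsph1 and Sgk1 did not pass. Of the 12 genes, 4 had entered the test through the outer medulla alone, among them both urea transporter genes.

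Mitochondrial genes were listed by pathway. Of 26 tested subunits of the respiratory chain and ATP synthase, 25 did not pass and 1 was lower, with a median of 0.08. Their values were above background in both zones, as in Atp5f1b, an ATP synthase subunit, at 17.41 and 17.47 against 17.68 and 17.35. Atp5po was the lower one, at -1.07 (SE 0.21). In the citrate cycle list 14 of 22 did not pass, 5 were lower and 3 higher. Idh2 and Cs were higher, by 1.10 (SE 0.19) and 0.79 (SE 0.19), as was Pdk4, a kinase that shuts off pyruvate dehydrogenase, by 1.44 (SE 0.19). Pdk2, its relative, was 1.99 lower on average, at 15.34 and 15.61 against 13.58 and 13.38. After quantile normalization 2 subunits of the respiratory chain passed as higher, and with arrays centred on their medians 2 passed as lower.

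Fatty acid oxidation was mixed, with 8 of 17 tested lower and 4 higher, while peroxisomal genes were lower in 14 of 15. Over all tested probe sets, 22.4% were lower and 33.7% higher. The largest difference towards the cortex was that of Decr1, at 13.00 and 13.05 against 10.60 on both outer medulla arrays. Ppara, the nuclear receptor that drives fatty acid oxidation, differed by -2.08 (SE 0.19), and Ppargc1a, a coactivator of mitochondrial genes, by 1.99 (SE 0.20). Bdh1, a ketone body enzyme, was 2.49 higher (SE 0.21). Peroxisomal genes had a median of -3.83. Dao, D-amino acid oxidase, stood at 15.79 and 16.49 against 7.98 and 8.74, Slc27a2, an acyl-CoA synthetase, at 16.19 and 16.26 against 8.84 and 9.69, and Cat, catalase, at 17.87 and 18.19 against 15.91 and 15.86. The cytochrome Cyp4a genes of the list are close copies of each other, so their values may share signal.

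Of 25 tested genes of amino acid breakdown, 24 were lower in the outer medulla, none higher, and the median was -4.54. Ddc, which makes dopamine from its precursor, stood at 13.80 and 13.61 against 6.45 and 5.87, Agxt2, an aminotransferase, at 16.87 and 16.98 against 9.52 and 9.40, and Kmo, of the kynurenine pathway, at 14.73 and 14.70 against 7.75 and 7.91. Enzymes of glyoxylate and hydroxyproline, from which oxalate can form, were among them, with Grhpr at 15.94 and 16.25 against 9.98 and 10.13 and Hoga1 at 14.22 and 14.45 against 9.71 and 9.93. Bckdhb, a subunit of branched-chain breakdown, did not pass, at -0.48 (SE 0.19).

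Of 8 tested genes of creatine and arginine metabolism, 5 were lower and 3 higher, with a median of -2.36. Gatm, the first enzyme of creatine synthesis, stood at 19.00 and 18.98 against 10.57 and 10.37, and Ass1, which makes arginine with Asl, at 17.11 and 17.17 against 9.43 and 9.66. The creatine kinases that use creatine were higher in the outer medulla, Ckb at 12.10 and 11.60 against 15.22 and 15.24 and Ckmt1 by 1.72 (SE 0.19). Of the ammonia and glutamine list 6 of 8 tested were lower. Slc38a3, the glutamine importer of proximal cells, stood at 13.30 and 13.80 against 10.01 and 9.98, and Glul, glutamine synthetase, at 16.78 and 17.02 against 14.27 and 14.55. Got1 was 1.17 higher (SE 0.20).

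Xenobiotic and glutathione genes were lower in 23 of 29 tested cases and higher in 5, with a median of -2.87. Cyp2e1 stood at 15.18 and 15.69 against 6.38 and 5.50, Acsm2, which conjugates organic acids, at 16.71 and 16.66 against 7.31 and 7.65, and Glyat, its partner in glycine conjugation, at 16.76 and 16.90 against 9.80 and 9.37. Ugt8, which makes galactosyl ceramide, went the other way, at 8.83 and 8.45 against 12.54 and 12.70. So did Nqo1, a quinone reductase, at 6.48 and 7.04 in the cortex, below background, against 9.11 and 9.18.

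Hypoxia genes were not uniformly higher in the outer medulla, with 7 of 14 tested higher, 4 lower and a median of 0.38. The shares of all tested probe sets were 33.7% higher and 22.4% lower. Egln3, a prolyl hydroxylase induced by hypoxia, stood at 8.25 and 8.78 against 11.08 and 11.15, and Ddit4, an inhibitor of growth signals, at 8.25 and 7.51 against 9.86 and 10.90. Ndrg1, a gene induced by hypoxia in many cells, was lower, at 17.53 and 17.41 against 13.96 and 13.92, and Bnip3 differed by -1.23 (SE 0.19). Hif1a and Vegfa were 0.72 (SE 0.19) and 0.67 higher (SE 0.19), while Epas1, encoding HIF-2 alpha, did not pass, at 0.07 (SE 0.20).

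Transcription factors of the tubule were higher in 17 of 25 tested cases and lower in 6, with a median of 1.84. Hnf4a, the regulator of proximal tubule genes, stood at 14.86 and 15.03 in the cortex and at 7.22 and 7.52 in the outer medulla, a difference of -7.58 (SE 0.19, limma adjusted p = 1e-11), at least 7.23 by the bound. Maf was 4.17 lower on average, at 13.15 and 12.37 against 8.61 and 8.56. Esrrb, an orphan nuclear receptor, stood at 6.04 and 6.05 in the cortex, below background, against 10.19 and 10.01. Tfap2b, a factor of distal segments, stood at 9.96 and 9.44 against 13.54 and 13.62. Pax2 and Pax8, the paired box factors of kidney development, were higher, at 9.92 and 9.98 against 13.55 and 13.71 for the first and 13.02 and 13.26 against 15.87 and 16.09 for the second.

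The binding letters of HNF4 were looked for in promoters because Hnf4a was among the factors with the largest difference. The 9 letters CAAAGTCCA, on either strand, occur in 0.375% of 27457 RefSeq rat promoters (build GRCr8, from 250 bases before to 50 bases after the gene's start) and in 0.317% of the 7566 promoters of tested genes. They occur in 0.686% of the 1748 promoters of genes lower in the outer medulla, or 12 promoters, and in 0.118% of the 2538 of genes higher, or 3 promoters. Among genes at least 4 lower the share was 2.11%, from 5 of 237 promoters, and among genes at least 4 higher it was 1.69%, from 1 of 59. These counts are small, and they describe letters and not binding. The windows of 180 bases before the start are shown for those 5 genes and, as the opposite case, for the most different gene that was higher. They are written 5′ to 3′ on the gene's strand, with the letters of the motif or of its reverse complement TGGACTTTG in capitals.
Pdzk1: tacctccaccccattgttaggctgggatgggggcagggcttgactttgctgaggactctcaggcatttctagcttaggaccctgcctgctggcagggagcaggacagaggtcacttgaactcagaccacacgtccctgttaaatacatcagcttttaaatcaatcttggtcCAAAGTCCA
Agxt2: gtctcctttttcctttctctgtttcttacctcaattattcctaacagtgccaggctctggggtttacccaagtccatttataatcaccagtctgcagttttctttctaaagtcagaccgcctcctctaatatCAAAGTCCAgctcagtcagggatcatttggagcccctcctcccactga
Kmo: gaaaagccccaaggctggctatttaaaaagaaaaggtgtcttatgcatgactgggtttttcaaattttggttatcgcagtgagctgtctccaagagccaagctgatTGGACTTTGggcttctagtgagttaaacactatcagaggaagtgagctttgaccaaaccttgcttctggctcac
Aspdh: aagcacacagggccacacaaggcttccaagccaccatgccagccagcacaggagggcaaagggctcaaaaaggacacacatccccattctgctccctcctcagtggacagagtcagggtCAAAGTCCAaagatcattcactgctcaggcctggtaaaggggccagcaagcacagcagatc
Slc3a1: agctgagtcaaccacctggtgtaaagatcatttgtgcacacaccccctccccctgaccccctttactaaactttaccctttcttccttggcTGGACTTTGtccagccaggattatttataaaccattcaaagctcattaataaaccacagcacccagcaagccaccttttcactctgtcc
Mfsd4a: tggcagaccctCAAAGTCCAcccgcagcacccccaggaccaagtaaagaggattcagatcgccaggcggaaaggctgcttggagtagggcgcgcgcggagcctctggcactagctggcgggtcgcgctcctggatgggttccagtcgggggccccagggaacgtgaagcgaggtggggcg

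The windows lie at chr2:187064815-187064994 for Pdzk1, chr2:61063236-61063415 for Agxt2, chr13:90089341-90089520 for Kmo and chr1:104094803-104094982 for Aspdh, all on the plus strand, and at chr6:15394750-15394929 for Slc3a1 and chr13:46062634-46062813 for Mfsd4a, both on the minus strand. The capitals begin 9 bases before the start in Pdzk1, 48 in Agxt2, 74 in Kmo, 61 in Aspdh, 89 in Slc3a1 and 169 in Mfsd4a. Pdzk1, a scaffold that holds transporters at the brush border, stood at 16.61 and 16.55 in the cortex and 9.11 and 9.05 in the outer medulla. Aspdh, an aspartate dehydrogenase, stood at 11.38 and 11.90 against 5.91 and 6.18. Together with Agxt2, Kmo and Slc3a1, whose values are given above, these are genes of proximal transport and amino acid metabolism. Mfsd4a, a transporter of the major facilitator family, holds the same letters and went the other way, from 9.58 and 9.85 to 14.48 and 14.20.

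Other motifs were searched in the same promoters, from 250 bases before to 50 bases after the start. The HNF1 motif occurred in 1 of the 27457 promoters and in 0 of those of tested genes. The letters TGGAAA are the core of the tonicity element bound by NFAT5. They occurred in 16% of promoters of genes higher in the outer medulla, 15.2% of genes lower and 16.1% of all tested genes. Among genes at least 4 higher their share was 22.0%, from 13 of 59 promoters. Among genes at least 4 lower it was 16.9%, from 40 of 237, and the difference was not tested. The GATA letters CTTATCA occurred in 0.867%, 1.37% and 1.12%, and the letters of the estrogen-related receptor element in 0.197%, 0.286% and 0.198%. All were searched on both strands, and the short letters can lie inside longer ones.

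The zone differences were set beside those of the EG arrays, which are separate arrays. Of the 158 genes of the lists called higher without EG, 146 were also higher in the outer medulla in both EG pairs. Of the 204 called lower, 189 were lower in both. Among all 461 tested genes of the lists, called or not, 37.1% were higher and 51.6% lower in both EG pairs. Of the probe sets called higher or lower without EG, 3887 of 4309 and 2386 of 2861 kept their direction in both EG pairs. Among all 12780 tested probe sets, 49.6% were higher and 29.3% lower in both EG pairs. The medians of the convoluted proximal tubule markers were -8.79 without and -7.49 with EG, those of peroxisomal genes -3.83 and -3.48, and those of thin limb markers 3.86 and 3.65. Distal convoluted and connecting tubule markers had medians of -3.77 and -1.75, and potassium channels of 1.31 and -0.29. These differences between medians were not tested.

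**Figure D5:**
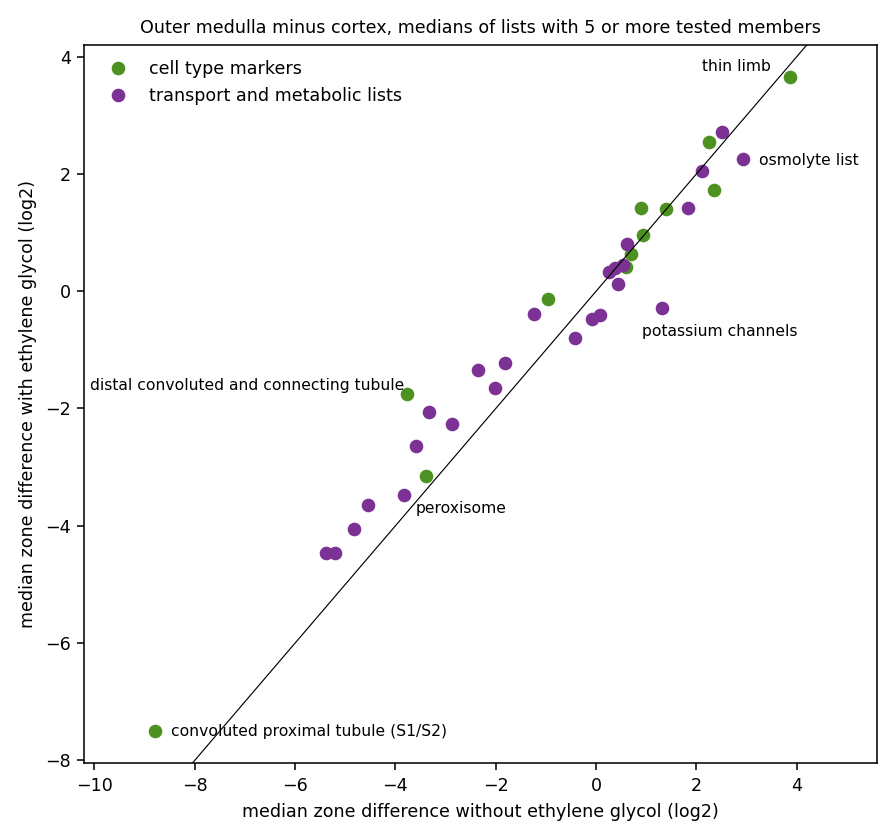
Median zone difference (outer medulla minus cortex, log2) of each list with 5 or more tested members on the 4 arrays without EG (horizontal axis) and on the 4 arrays with EG (vertical axis), 1 point per list, with the line of equal medians. Most lists lie near the line, and the distal convoluted and connecting tubule markers, at -3.77 and -1.75, lie above it.

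Whether the zone difference itself changed with EG was tested by limma over 8 arrays. Of 13279 tested probe sets, 3 passed with a signed zone difference (outer medulla minus cortex) that was higher with EG than without (0.0226%), and 0 passed with one that was lower, while 1395 had an unadjusted p under 0.05. The fit has 2 residual degrees of freedom, and changes that did not pass could be large. Spp1 had a zone difference of 6.19 without and 0.81 with EG (limma adjusted p = 0.0931). For Trpv5 the values were -6.39 and -1.09 (limma adjusted p = 0.134). Without EG its outer medulla values were below background, so by the bound it was at least 3.65 lower there. With EG its pairs were unlike, at 0.001 and -2.18. Gabrp, a subunit of a GABA receptor, stood at 10.96 and 10.46 in the cortex without EG and at 5.86 and 5.50 in the outer medulla, below background and at least 2.99 lower. With EG the outer medulla stood at 13.66 and 12.33 and the cortex at 12.73 and 11.74, so the signed zone difference went from -5.03 to 0.76, smaller in size with EG, a change of 5.78 (SE 0.29, limma adjusted p = 0.00679). A2m, encoding alpha-2-macroglobulin, an injury-induced protease inhibitor, was below background on all 4 arrays without EG, between 5.55 and 6.0. With EG it stood at 14.22 and 11.74 in the outer medulla and at 9.28 and 6.91 in the cortex, a change of the zone difference of 4.66 (SE 0.30, limma adjusted p = 0.0111). The 3rd was a probe set without a gene name.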

How the data were processed

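RNA of rat kidney zones was measured on Clariom S arrays, and the authors deposited RMA values on a log2 scale, per the submitters' processing notes. The sources used here do not state a software version. That the logarithm has base 2 is read from the range. No raw intensities were used, and the values were analysed as deposited.

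Of 24834 probe sets, 1646 controls were left out. Of the remaining 23188, 15049 had 1 gene symbol, all matched by gene ID to RefSeq names (GRCr8), and 8139 had none. For 10 symbols with several probe sets, the one with the highest mean was used. The comparison used limma 3.58.1 in R 4.3.3 (lmFit and eBayes) on the 4 arrays without EG with the treatment as a block, 2-sided, with Benjamini-Hochberg adjustment over all 12780 probe sets that passed the filter (highest value at least 7.46). The change of the zone difference with EG was fitted on all 8 arrays. The scripts were tested on simulated data. There, the test of the change with EG recovered 0% of changes of 1, 28% of changes of 2 and 96% of changes of 4. Lists, promoters and figures were made in Python 3.11.15 (pandas 2.3.3, matplotlib 3.10.9). Array number and signal over background limit the precision, and there is 1 array per zone and treatment.

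The arrays, the 42 gene lists and the tests were chosen with earlier results of these data known. The lists hold 583 genes, of which 520 had a named probe set and 461 were tested. The genes named are 7 markers, the 15 with the largest difference in each direction past the threshold by the smaller of the pairs, up to 5 members per list with the largest difference and members past the threshold against the list's median, 15 pairs of related genes, and those past the threshold for the change with EG. Uncharacterised loci were passed over. Other genes were named after their values were seen. Alternatives covered normalization, filter, variance prior, block, arrays in the fit, each array left out, and the size threshold.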

Additional observations from a re-analysis of the deposited data

Results flagged for a closer look

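The zone difference changed with EG by the limma test over 8 arrays in 3 probe sets: Gabrp by 5.78 (SE 0.29), A2m by 4.66 (SE 0.30) and a probe set without a gene name by 5.17 (SE 0.29), each as the signed difference, outer medulla minus cortex, with EG minus without. For Gabrp the difference was smaller in size with EG, at 0.76 against -5.03. The unnamed probe set stood at 5.02 and 4.89 in the cortex and 5.76 and 5.31 in the outer medulla without EG, and at 8.97 and 6.09 against 14.63 and 11.91 with EG.

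A further 5 of the named genes passed the test of the zone difference without EG and had the opposite sign in both EG pairs. The mean zone difference with EG was -0.20 for Avpr1a (0.53 without), 0.14 for Lhx1 (-1.38 without), -0.29 for Kcnj10 (1.38 without), -0.92 for Edn1 (0.61 without) and 0.24 for Synpo (-0.94 without). By limma, none of these changes passed, with adjusted p-values of 0.458, 0.350, 0.255, 0.211 and 0.319 in the same order. Edn1 lay at or below the background level in both zones without EG. Lhx1 was below background on all 4 EG arrays, between 6.18 and 6.57. Kcnj10 stood at 5.98 and 5.76 on the arrays of EG without phlorizin, below background in both zones.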

How the results depend on the processing

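The counts of 4309 higher and 2861 lower probe sets stayed within 1.5 times under quantile normalization (4115 and 3129), with arrays centred on their medians (3857 and 3123), without a filter (4494 and 3213), with a trended (4530 and 3002) or robust (4300 and 2858) variance prior, without the treatment block (4182 and 2774) and with 8 arrays and 2 zone terms (3384 and 2239) or 1 (4232 and 2484). A stricter filter, which tests fewer probe sets, gave 2710 higher. Leaving out each array in turn, without the block and with the lone array of a zone assumed to vary like the others, gave 3376 to 4042 higher and 2260 to 2519 lower. At a size of at least 2 in both pairs, 666 were higher and 809 lower. The arrays were paired by treatment; the labels carry no replicate numbers to pair by. The shares of promoters were moved by a size limit of 2: HNF4 letters to 0.424% among genes higher and 1.26% among genes lower, the TonE core to 19.9% and GATA letters to 0.424% among genes higher. Edn1 reversed to -0.16 with 8 arrays and 1 zone term, and the cause was not tested. For the change with EG, 3 and 0 probe sets passed under every alternative run. Of 1176 recomputed counts of list members, 1135 stayed within 1.5 times and 41 moved. Among these were counts of the respiratory chain, which moved to 1 to 2 higher and to 2 to 3 lower, with 2 higher under quantile normalization.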
